A study of Mus musculus with 2 samples.

Results

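The genes of cohesin, of the proteins that load and regulate it, and of CTCF were described in mouse megakaryocyte-erythroid progenitors (MEP). The set held 10 genes, chosen by name: Smc1a, Smc3, Rad21, Stag1, Stag2, Nipbl, Mau2, Pds5a, Pds5b and Ctcf. All 10 were found among 43346 Ensembl gene rows of the deposited tables, 21474 of them protein-coding, once the unversioned gene IDs had been looked up in GENCODE M21. MEP are primary cells of the bone marrow, named for the erythroid and megakaryocyte lineages they can give rise to. The cells came from male C57BL/6J mice aged 5 to 6 weeks, with no genetic change or treatment named in the labels, and no other cell type or condition was measured. Total RNA was sequenced in 2 libraries, labelled as biological replicates 1 and 2. Both were ScriptSeq libraries of 100 ng RNA after removal of ribosomal RNA, with a size range of 200 to 1000 in replicate 1 and 215 to 1000 in replicate 2 (unit not stated). The libraries have separate biosample entries but share a donor entry, and nothing in the sources tells whether the mice differed. The SD given below measures only the spread between these libraries, which may be technical. With 1 group, no comparison between conditions was possible and no statistical test was run on these data.

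Cohesin is a ring-shaped complex that holds sister chromatids together from DNA replication until mitosis and that forms chromatin loops by moving along DNA. SMC1A and SMC3 are the long arms of the ring, RAD21 closes it, and STAG1 or STAG2 is bound to RAD21. NIPBL with MAU2 places cohesin on DNA and drives its movement. PDS5A and PDS5B regulate its release and its acetylation, and CTCF is the zinc finger protein at whose binding sites moving cohesin is stopped. Mutations of STAG2, RAD21, SMC1A and SMC3 are known from human myeloid leukemia, including the leukemia of megakaryocyte precursors in Down syndrome.

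The libraries held 39919858 expected counts in replicate 1 and 48043009 in replicate 2, of which the 10 genes took 146641 (0.367%) and 161300 (0.336%). An expected count is an estimated number of reads or fragments from a gene. Levels are given in TPM, a share of all transcripts that is corrected for transcript length and scaled to a fixed sum. The floor of 3 counts in a transcript of 4 kb equals 0.0082 TPM in replicate 1 and 0.0056 TPM in replicate 2, and this covers counting error only. Nuclear protein-coding genes without globins held 25.5% of TPM in replicate 1 and 20.6% in replicate 2, so TPM values of such genes are not on quite the same footing in the libraries. Beside the labelled cell type, lists of markers were looked up, which were chosen with earlier results of these data known. A gene was counted as detected where both libraries have at least 1 TPM, as 39.4% of all protein-coding genes do. All 8 erythroid, 4 of 6 megakaryocyte, 4 of 6 stem cell, 6 of 10 neutrophil and monocyte and 1 of 9 lymphoid markers were detected. Of the lymphoid markers Cd3e, Cd3d, Cd4 and Cd8a, and of the stem cell markers Ly6a, had 0 counts in both libraries. The stem cell markers detected were Cd34 at 18.3 TPM in replicate 1 and 1.44 TPM in replicate 2, Angpt1 at 43.9 and 12.0, Meis1 at 12.2 and 4.28, and Mecom at 1.74 and 1.89. The lymphoid marker detected was Nkg7, at 7.01 and 5.02. In RNA from a pool of cells, a larger share of expressing cells and more RNA per cell cannot be told apart.

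All 10 genes were expressed in both libraries, most of them well above the typical expressed gene. Each was detected (at least 1 TPM in both), as 39.4% of all protein-coding genes were. The median over the members was 39.0 TPM in replicate 1 and 27.4 TPM in replicate 2, beside 8.89 and 7.22 over the 8465 protein-coding genes that passed the same rule. Among those genes the members had a median percentile of 87.0 in replicate 1 and 84.9 in replicate 2. All 10 had whole counts with a posterior SD of 0 in both libraries, that is, no reads in dispute with another gene, as 86.3% of the detected protein-coding genes did.

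The SMC genes, which encode the arms of the ring, were both high. Smc1a (ENSMUSG00000041133.7, mm10 chromosome X, 152016428 to 152062694, plus strand) measured 84.6 TPM in replicate 1 and 69.5 TPM in replicate 2, a mean of 77.1 ± 10.7 (SD, n = 2), from 28133 and 33656 counts. Smc3 (ENSMUSG00000024974.10, chromosome 19, 53600398 to 53645833, plus strand) had a TPM of 57.1 and 45.0, a mean of 51.1 ± 8.53 (SD, n = 2), from 23335 and 26150 counts. Smc1a exceeded Smc3 in both libraries although their proteins pair 1 to 1 in the ring. The log2 ratio of Smc3 over Smc1a was -0.57 in replicate 1 and -0.63 in replicate 2, a mean of -0.60 ± 0.041 (SD, n = 2). The size of this gap depended on how a short transcript of Smc1a was treated. Smc1a-206, 1824 bases long and annotated as a target of nonsense-mediated decay, held 11.1% and 11.99% of the gene's counts but 25.2% and 27.0% of its TPM. Without it and the other short transcripts, Smc1a was at 61.2 and 49.2 and Smc3 at 55.1 and 41.8, and the log2 ratio was -0.15 and -0.24. Expected counts per kb of the longest transcript, which keep the counts of short transcripts, gave -0.32 and -0.41. Smc1a thus stayed above Smc3 in both libraries by each measure, by a smaller margin than in TPM. The coding sequences of Smc1a-201 and Smc3-201 were 63.6% identical over aligned bases, with 12 bases as their longest identical run.

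Rad21, the gene of the kleisin subunit that links both SMC heads and is cut at anaphase, was lower than both SMC genes. Rad21 (ENSMUSG00000022314.9, chromosome 15, 51962240 to 51991747, minus strand) measured 35.5 TPM in replicate 1 and 30.5 TPM in replicate 2, a mean of 33.0 ± 3.52 (SD, n = 2), from 10960 and 13866 counts. Its higher value was below the lower value of Smc3, so these genes did not overlap. The deposited annotation has 1 transcript for Rad21, of 3604 bases, so its level does not depend on how reads were divided among transcripts.

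Stag2 had the highest TPM of the 10 genes, and most of that TPM was assigned to a single short transcript. Stag2 (ENSMUSG00000025862.10, chromosome X, 42149317 to 42277185, plus strand) encodes the STAG subunit that is often lost in myeloid leukemia. Its level was 136 TPM in replicate 1 and 137 TPM in replicate 2, a mean of 136 ± 0.93 (SD, n = 2), at percentiles 96.9 and 97.4 of detected protein-coding genes. Its counts were 27840 and 28614, fewer than those of Smc1a in both libraries. Stag2-204, a coding transcript annotated with 294 bases (chromosome X, 42151014 to 42206124), took 596 counts of replicate 1 and 1136 of replicate 2, or 2.14% and 3.97% of the gene's total. Because its effective length, the number of positions at which a fragment can start, was 85.8 and 84.4 bases, those counts were worth a TPM of 76.1 and 100.1, or 56.2% and 73.2% of the gene's TPM. The full-length transcript Stag2-201, of 5825 bases, held 20876 and 22696 counts, or 74.98% and 79.3%, at a TPM of 40.8 and 30.1. Stag2-203, of 6171 bases, held 6004 and 4559 counts at a TPM of 11.1 and 5.70.

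Stag2-204 differs from Stag2-201 in its first exon, which spans 75 bases (chromosome X, 42151014 to 42151088). The other 219 of its 294 bases lie in exons shared with Stag2-201. So do all 123 of its coding bases, which were found letter for letter in Stag2-201. Stag2-204 also stops at 42206124, the last base of its annotated coding part, while Stag2-201 runs on to 42277185. The coding part is shown because it carries no base that could tell the short transcript from the full-length one. It is given 5′ to 3′ from GENCODE M21 transcripts on mm10, plus strand, from exons within chrX:42201951-42206124, with the 44 bases of the second exon in lower case and the 79 bases of the third exon in capitals.
Stag2-204 coding part: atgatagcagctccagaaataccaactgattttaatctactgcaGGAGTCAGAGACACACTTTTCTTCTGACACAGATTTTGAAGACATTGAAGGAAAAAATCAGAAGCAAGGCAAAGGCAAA

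Stag1, the paralog of Stag2 in the same place of the complex, was lower by every measure used. Stag1 (ENSMUSG00000037286.11, chromosome 9, 100597798 to 100959375, plus strand) measured 25.7 TPM in replicate 1 and 19.5 TPM in replicate 2, a mean of 22.6 ± 4.41 (SD, n = 2), from 9758 and 10173 counts. The log2 ratio of Stag2 over Stag1 was 2.40 and 2.81 in TPM, a mean of 2.61 ± 0.29 (SD, n = 2), so Stag2 made up 84.1% and 87.6% of the TPM of both genes. Over near-full-length transcripts, those of at least 75% of the length of a gene's longest transcript, Stag2 was at 51.9 and 35.9 and Stag1 at 15.5 and 9.89. The log2 ratio was then 1.75 and 1.86, and the share of Stag2 was 77.1% and 78.4%. Expected counts per kb of the longest transcript gave 1.52 and 1.495. The choice of transcripts thus moved the size of this ratio by more than the spread between libraries and did not turn its direction.

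Stag1 has 17 transcripts in the deposited annotation, the most of the 10 genes, and their shares differed between the libraries. Stag1-206, of 6186 bases, led in both, with 58.8% of the gene's TPM in replicate 1 and 46.1% in replicate 2. Stag1-216, annotated as a target of nonsense-mediated decay, stood at 4.99 TPM in replicate 1 and at 0 in replicate 2. Stag1-214, a coding transcript of 2885 bases, had a TPM of 0.42 and 4.31. The deposited TPM intervals of these transcripts, whose level is not stated, lay apart between the libraries. To see how much sequence the STAG genes share, their coding parts were aligned. Stag1-206 and Stag2-201 were 72.3% identical over 3627 aligned bases, and their longest identical run had 23 bases. That run is shown in capitals with 30 coding bases on each side, 5′ to 3′ from GENCODE M21 on mm10, plus strand, from exons within chr9:100845106-100848732 and chrX:42229214-42229392. The flanks show how soon the paralogs part again.
Stag1-206: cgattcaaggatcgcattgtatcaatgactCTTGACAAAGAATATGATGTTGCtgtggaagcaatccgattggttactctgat
Stag2-201: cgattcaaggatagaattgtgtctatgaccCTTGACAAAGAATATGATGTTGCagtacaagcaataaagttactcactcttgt

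Nipbl and Mau2, the genes of the loader, were among the lower members. Nipbl (ENSMUSG00000022141.6, chromosome 15, 8290617 to 8444463, minus strand) encodes the large subunit that stimulates the ATPase of cohesin. It measured 16.8 TPM in replicate 1 and 11.0 TPM in replicate 2, a mean of 13.9 ± 4.07 (SD, n = 2), from 13171 and 12753 counts over a transcript of 8815 bases. Mau2 (ENSMUSG00000031858.11, chromosome 8, 70016123 to 70042734, minus strand) encodes the small subunit that binds and stabilizes NIPBL. Its TPM was 5.61 and 5.32, a mean of 5.47 ± 0.21 (SD, n = 2), from 2631 and 3673 counts. Mau2 had the lowest TPM of the 10 genes and was the only member below the median of detected protein-coding genes in both libraries, at percentiles 34.3 and 39.5. Over near-full-length transcripts, where other genes lose part of their TPM, it was at percentiles 51.5 and 56.2. Nipbl exceeded Mau2 by a log2 ratio of 1.58 in replicate 1 and 1.05 in replicate 2, a mean of 1.32 ± 0.37 (SD, n = 2). Both transcripts of Mau2 are near full length, and Nipbl has 1 transcript in the deposited annotation, so this ratio was 1.58 and 1.06 over near-full-length transcripts.

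The PDS5 genes also differed from each other, by a smaller log2 ratio than the STAG genes in TPM and by a larger one over near-full-length transcripts and in counts per kb. Pds5a (ENSMUSG00000029202.9, chromosome 5, 65605721 to 65698273, minus strand) measured 46.8 TPM in replicate 1 and 37.5 TPM in replicate 2, a mean of 42.1 ± 6.53 (SD, n = 2), from 16743 and 19770 counts. Pds5b (ENSMUSG00000034021.11, chromosome 5, 150673739 to 150810690, plus strand) had a TPM of 9.82 and 6.45, a mean of 8.14 ± 2.38 (SD, n = 2), from 6369 and 5504 counts. Both proteins bind RAD21 and act with the release factor WAPL. The log2 ratio of Pds5a over Pds5b was 2.25 and 2.54, a mean of 2.40 ± 0.20 (SD, n = 2), and Pds5a made up 82.6% and 85.3% of the TPM of both genes. Unlike the STAG ratio, this one did not shrink over near-full-length transcripts, where it was 2.27 and 2.83, or in counts per kb of the longest transcript, where it was 2.23 and 2.68. Pds5a has 1 transcript in the deposited annotation, of 4146 bases, against up to 8934 bases in GENCODE M21, so part of the longer transcript is outside the annotation the authors used. Counts of Pds5b divide mainly between Pds5b-201 and Pds5b-202, with 76.1% and 22.5% of TPM in replicate 1 and 61.9% and 19.9% in replicate 2. The short Pds5b-203 stood at 0.07 TPM in replicate 1 and at 1.17 in replicate 2.

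Pds5a-201 and Pds5b-201 were 70.8% identical over 3946 aligned coding bases, with a longest identical run of 23 bases. The run is shown because it marks the most similar point of the pair, in capitals with 30 bases on each side, 5′ to 3′ from GENCODE M21 on mm10. It lies at chr5:65623963-65624045 on the minus strand for Pds5a and at chr5:150792121-150792203 on the plus strand for Pds5b.
Pds5a-201: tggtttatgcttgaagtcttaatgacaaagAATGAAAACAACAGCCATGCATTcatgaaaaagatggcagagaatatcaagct
Pds5b-201: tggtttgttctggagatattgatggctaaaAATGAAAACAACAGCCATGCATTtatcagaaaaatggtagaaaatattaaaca

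Ctcf was the member that differed most between the libraries in TPM, and it too had much of its TPM in short transcripts. Ctcf (ENSMUSG00000005698.11, chromosome 8, 105636568 to 105682922, plus strand) measured 42.4 TPM in replicate 1 and 24.3 TPM in replicate 2, a mean of 33.4 ± 12.8 (SD, n = 2), from 7701 and 7141 counts. The coding transcript Ctcf-201, of 3782 bases, held 84.4% and 88.1% of the counts, at a TPM of 20.0 and 13.2, but only 47.1% and 54.2% of the gene's TPM. The 5 other transcripts in the deposited annotation are annotated as non-coding or as retaining an intron. Ctcf-206, which retains an intron and has 851 bases, stood at 11.4 TPM in replicate 1 and at 3.13 in replicate 2. Ctcf-202, a processed transcript of 528 bases, had 8.48 and 0. Ctcf-205, a processed transcript of 469 bases, had 0 and 5.74. Ctcf-204, of 1554 bases, had 2.55 and 2.24. Ctcf-203, of 729 bases, had 0 and 0.03. Ctcf-204 and Ctcf-206 were thus assigned counts in both libraries and Ctcf-202 and Ctcf-205 in 1 each, while Ctcf-201 led in both. These values are estimates of how reads divide among overlapping transcripts, and a 0 does not show absence. The deposited interval reached 0.65 TPM for Ctcf-202 in replicate 2 and 0.61 TPM for Ctcf-205 in replicate 1.

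The sequences that set Ctcf-205 and Ctcf-206 apart from Ctcf-201 are shown because these transcripts hold part of the gap between the TPM of the gene and that of Ctcf-201. Both are 5′ to 3′ from GENCODE M21 on mm10, plus strand. For Ctcf-205 the third exon (chr8:105679403-105679567), which no exon of Ctcf-201 overlaps, is in capitals after the last 30 bases of the second exon. For Ctcf-206 the first 120 bases of the retained intron (chr8:105680260-105680379) are in capitals after the last 30 bases of the coding exon before it.
Ctcf-205: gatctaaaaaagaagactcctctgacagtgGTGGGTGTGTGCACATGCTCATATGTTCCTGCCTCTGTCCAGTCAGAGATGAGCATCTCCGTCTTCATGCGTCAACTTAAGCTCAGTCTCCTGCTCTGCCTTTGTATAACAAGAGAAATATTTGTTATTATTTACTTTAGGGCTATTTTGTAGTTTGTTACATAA
Ctcf-206: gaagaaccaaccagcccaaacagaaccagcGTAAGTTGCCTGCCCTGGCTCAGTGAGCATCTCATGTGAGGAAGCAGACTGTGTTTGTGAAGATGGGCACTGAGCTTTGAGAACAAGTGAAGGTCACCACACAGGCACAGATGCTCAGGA

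Rad21 and Ctcf, whose proteins meet at loop anchors, had like TPM means and traded places between the libraries. The log2 ratio of Rad21 over Ctcf was -0.26 in replicate 1 and 0.33 in replicate 2, a mean of 0.037 ± 0.42 (SD, n = 2). Over near-full-length transcripts Rad21 was higher in both, with log2 ratios of 0.83 and 1.22, and counts per kb of the longest transcript gave 0.58 and 1.03. The plot of ratios between paired genes shows the 5 pairs by each of these measures.

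**Figure D1:**
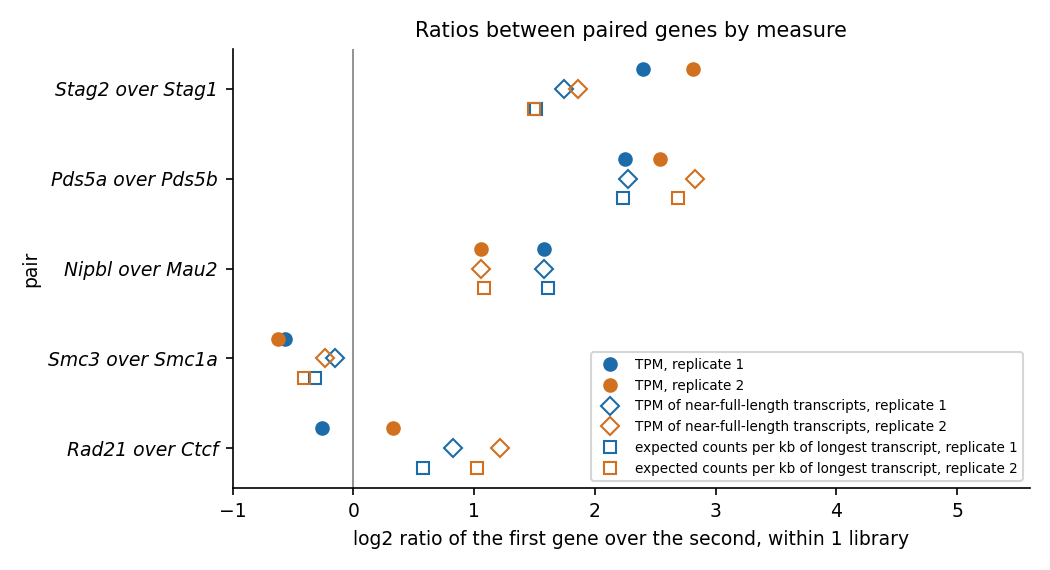
Log2 ratio of the first gene over the second within each library (x axis) for 5 pairs of genes (y axis), by TPM (filled circles), TPM of near-full-length transcripts (diamonds) and expected counts per kb of the longest transcript (squares), with replicate 1 in blue and replicate 2 in orange. The circles of Rad21 over Ctcf lie on both sides of 0, at -0.26 and 0.33, while the other 4 pairs keep their direction by every measure.

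The order of the 10 genes depended on the measure, at its top most of all. By mean TPM it ran from Stag2 over Smc1a, Smc3, Pds5a, Ctcf, Rad21, Stag1, Nipbl and Pds5b to Mau2. Neighbours were taken as apart where the lower value of the higher gene exceeded the higher value of the next, which held for 6 of 9 pairs of neighbours. Smc3 and Pds5a, Pds5a and Ctcf, and Ctcf and Rad21 were not apart. Over near-full-length transcripts Smc1a came first with 61.2 and 49.2, then Smc3 with 55.1 and 41.8, Stag2 with 51.9 and 35.9 and Pds5a with 46.8 and 37.5. Of the 9 pairs of neighbours only 3 were apart in that order: Pds5a and Rad21, Rad21 and Ctcf, and Stag1 and Pds5b. Among Smc1a, Smc3, Stag2 and Pds5a no neighbours were apart there, though the lower value of Smc1a, 49.2, exceeded the higher value of Pds5a, 46.8. Ctcf, at 20.0 and 13.2, took the sixth place, next to Nipbl. In expected counts per kb of the longest transcript, scaled to a library of 1000000 counts, Smc1a was again first, with 150 and 149, followed by Smc3 with 120.5 and 112, Stag2 with 113 and 96.5, and Pds5a with 101.2 and 99.3. Stag2 was thus first in TPM, and within each library it was below Smc1a and Smc3 by both other measures. Its values were not apart from those of Smc3 by either of them.

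**Figure D2:**
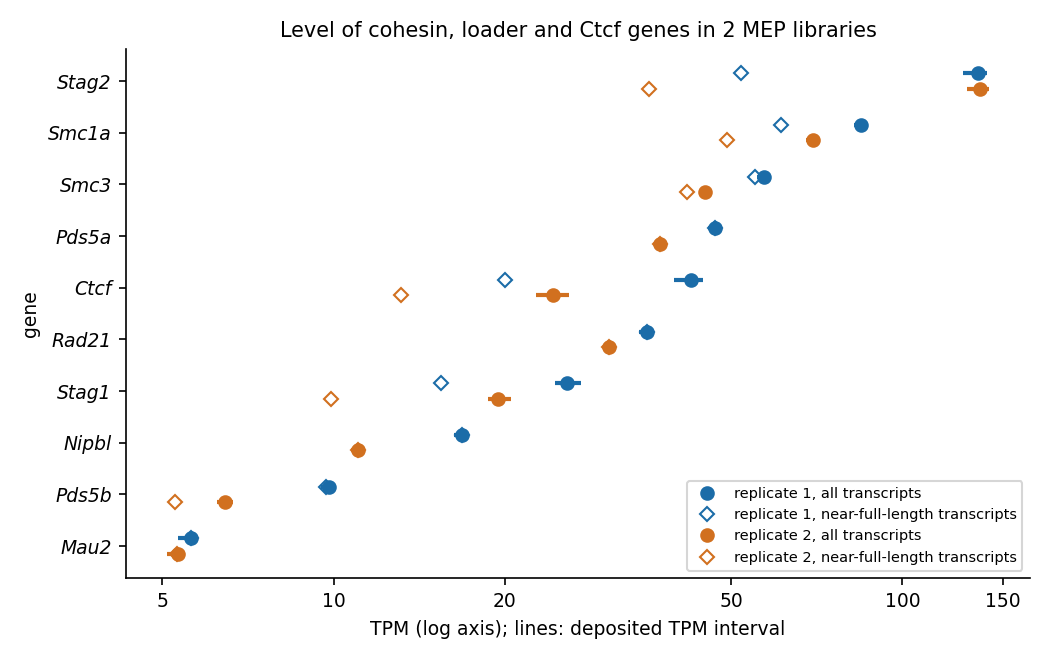
TPM on a log axis (x axis) of each of the 10 genes (y axis) in replicate 1 (blue) and replicate 2 (orange), over all transcripts (filled circles, with the deposited TPM interval as a line) and over near-full-length transcripts (open diamonds). Circles and diamonds lie far apart for Stag2, from 136 and 137 down to 51.9 and 35.9, and for Ctcf and Stag1, and coincide for genes with 1 transcript.

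Stag2 had the lowest share of TPM in near-full-length transcripts in both libraries, and Ctcf and Stag1 came next. Of the 7 members with 2 or more transcripts, 2 had under 50% of their TPM there over both libraries together, as did 36.1% of all detected protein-coding genes with 2 or more transcripts. For Stag2 the share was 38.3% in replicate 1 and 26.2% in replicate 2, although the same transcripts held 96.7% and 95.3% of its counts. For Ctcf it was 47.1% and 54.2%. For Stag1 it was 60.2% and 50.8%, for Smc1a 72.3% and 70.8%, for Pds5b 98.6% and 81.7%, and for Smc3 96.5% and 92.7%. Over all detected genes with 2 or more transcripts the median share was 69.1%, so a low share is common in these tables. The same transcript led in both libraries for 7 of 7 members, beside 72.6% of such genes. Only for Stag2 was the leading transcript under 75% of the longest in both libraries, which held for 26.5% of such genes.

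**Figure D3:**
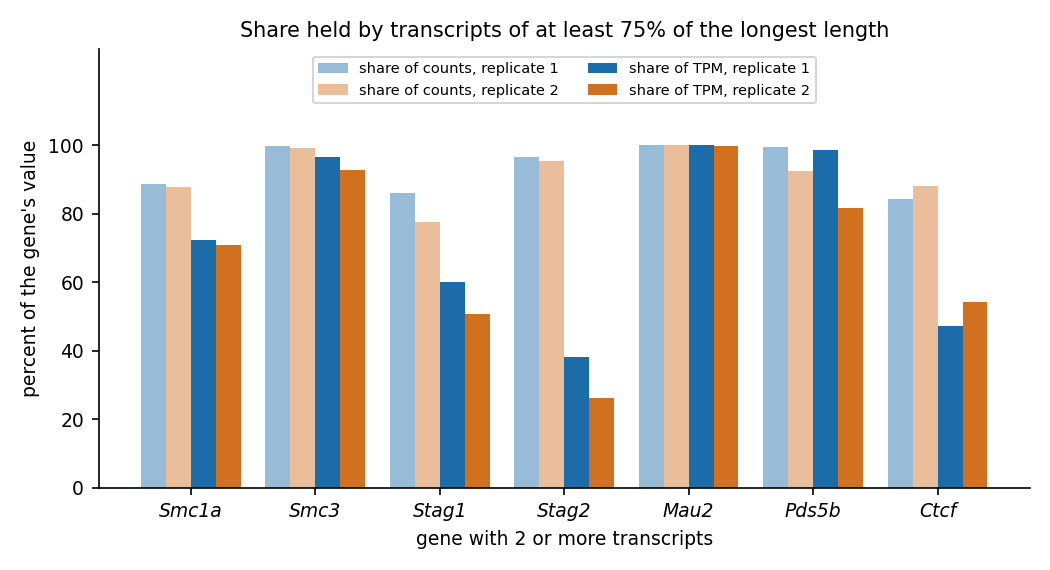
Percent of each gene's expected counts (pale bars) and TPM (dark bars) held by transcripts of at least 75% of the longest length (y axis), for the 7 members with 2 or more transcripts (x axis), in replicate 1 (blue) and replicate 2 (orange). Pale bars are all above 77%, while the dark bars of Stag2 stand at 38.3% and 26.2%.

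The members were also compared between the libraries, on a scale on which the median protein-coding gene is at 0. The TPM of the median gene was lower in replicate 2 by 0.31 on the log2 scale, so log2 ratios of replicate 2 over replicate 1 were computed from TPM + 0.1 and that median was subtracted. None of the 10 genes was over 2-fold apart, as 11.1% of the 9046 protein-coding genes averaging 1 TPM or more were. The share was 8.24% in TMM-scaled counts and 12.6% over near-full-length transcripts. The count was 0 in each of the 9 ways of scaling that were tried, which in a set of 10 genes does not set the members apart from other genes. Ctcf was lowest at -0.49, followed by Nipbl and Pds5b at -0.29, Stag1 at -0.09, Smc3 at -0.03 and Pds5a at -0.01. Smc1a was at 0.03, Rad21 at 0.09, Mau2 at 0.24 and Stag2 at 0.33. Thus 4 of 10 lay above 0, beside 50% of all genes by construction, and 56.5% of all genes fell within the range that the members spanned. Each value rests on 1 library a side and has no replicate check.

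Ctcf, Nipbl, Pds5b, Stag1 and Smc3 had negative ratios in all 9 settings, and the other 5 changed sign in at least 1. Ctcf ranged from -0.80 without centring to -0.28 over near-full-length transcripts, Nipbl from -0.60 to -0.27, Pds5b from -0.60 to -0.27, Stag1 from -0.40 to -0.09 and Smc3 from -0.34 to -0.03. Ctcf was the lowest in centred TPM, but Pds5b was lower than Ctcf in TMM-scaled counts, at -0.43 against -0.33, and over near-full-length transcripts, at -0.54 against -0.28. Stag2 turned with the measure: it was at 0.33 in centred TPM, -0.18 in TMM-scaled counts and -0.21 over near-full-length transcripts. Its effective length was 2249 bases in replicate 1 and 1555 in replicate 2, a log2 change of -0.53, as Stag2-204 took a larger share. The deposited TPM intervals lay apart between the libraries for 8 of 10 members, all but Stag2 and Mau2, and for 75.9% of detected protein-coding genes.

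**Figure D4:**
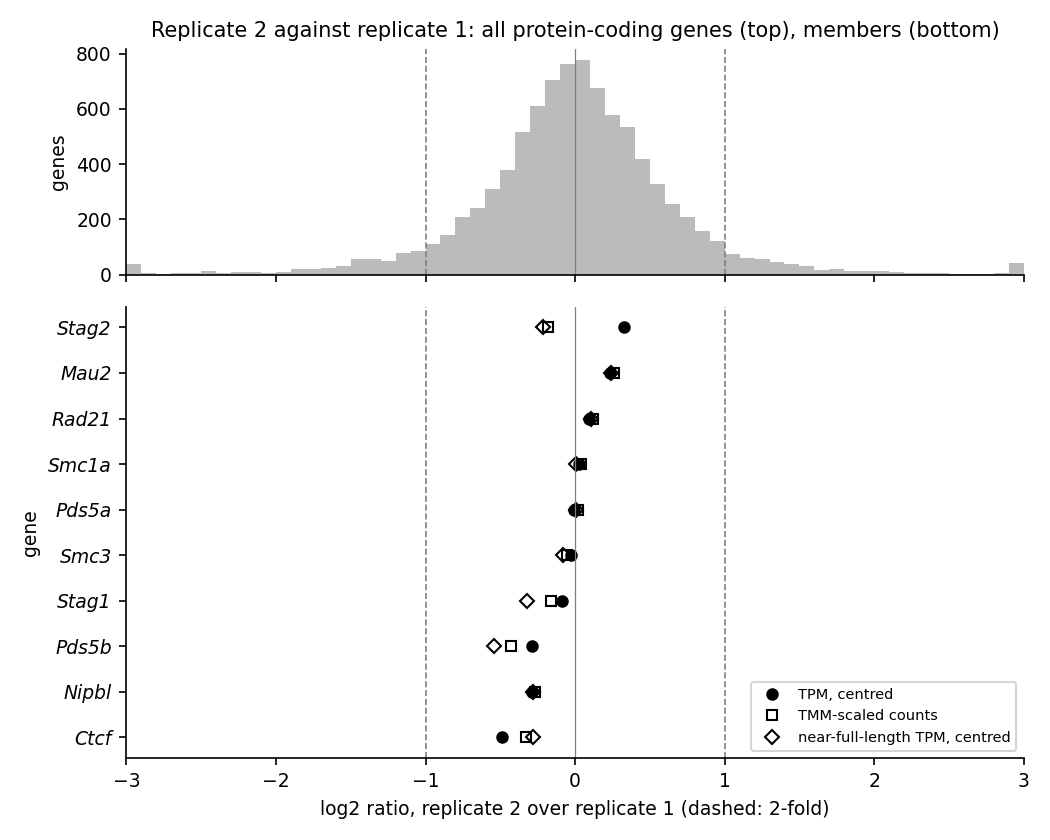
Log2 ratio of replicate 2 over replicate 1 (x axis) for 9046 protein-coding genes as a histogram of centred TPM (top, number of genes on the y axis, end bins holding values beyond the axis) and for the 10 members (bottom) in centred TPM (circles), TMM-scaled counts (squares) and centred near-full-length TPM (diamonds), with dashed lines at 2-fold. All symbols lie between the dashed lines, and those of Stag2 fall on both sides of 0.

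Markers of cell state and of other cells also differed between the libraries. Sums below are in TPM as deposited, and directions are in centred log2 TPM over markers averaging 1 TPM or more. The 6 proliferation markers summed to 612 in replicate 1 and 511 in replicate 2, with 4 of 6 higher in replicate 2 and none over 2-fold apart. The 8 erythroid markers summed to 1361 and 1342, and all 8 were higher in replicate 2 after centring, with a median log2 ratio of 0.37. The 6 megakaryocyte markers summed to 62.9 and 24.1, with 3 over 2-fold lower in replicate 2 and 1 higher, and the 6 stem cell markers to 76.5 and 19.6, with 3 over 2-fold lower. The 10 neutrophil and monocyte markers summed to 81.6 and 143, but they were split: 5 were over 2-fold higher in replicate 2, among them S100a8 at 30.7 and 68.2, and 2 over 2-fold lower, Mpo at 8.53 and 1.64 and Ctsg at 4.26 and 0.34. The 9 lymphoid markers summed to 7.81 and 28.3, with 2 over 2-fold higher, Gzma at 0 and 9.03 and Gimap4 at 0.80 and 13.2. The part of these markers in the differences of Ctcf, Nipbl and Pds5b was not tested.

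The genes that release, acetylate or cleave cohesin were all expressed, at lower levels than most of the core members. Of 9 listed, 9 were detected, beside 39.4% of all protein-coding genes, with a median TPM of 9.59. None was over 2-fold apart between the libraries after centring, beside 11.1% of protein-coding genes averaging 1 TPM or more. A count of 0 in so few genes does not set a list apart from other genes, here or in the lists below. Wapl, which opens the ring to release cohesin from DNA, was highest at 56.0 in replicate 1 and 44.6 in replicate 2, though its near-full-length transcripts held 23.5 and 19.6. Of the acetyltransferases that lock the ring on SMC3, Esco1 had 14.6 and 7.74, and Esco2, the enzyme of S phase, 9.59 and 9.58. Cdca5, the gene of sororin, which holds off WAPL, had 6.90 and 5.43, and the deacetylase gene Hdac8 had 4.41 and 1.88, over 2-fold apart before centring only. Sgo1, which protects cohesin at centromeres, had 15.5 and 9.63, and its relative Sgo2a had 4.03 and 3.34. Espl1, the gene of separase, which cuts RAD21, had 2.32 and 3.15, and Pttg1, the gene of its inhibitor securin, had 17.3 and 12.8.

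Cohesin genes known from meiosis were low or had no counts. Smc1b, Rad21l and Ctcfl, the germ cell relatives of Smc1a, Rad21 and Ctcf, had 0 counts in both libraries. Rec8, the meiotic kleisin gene, stood at 4.26 TPM in replicate 1 and at 4.57 in replicate 2, from 763 and 1204 counts. Stag3 had 2.63 and 2.89, of which near-full-length transcripts held 0.13 and 0.44. Thus 2 of 5 genes on this list were detected, beside 39.4% of all protein-coding genes, and Rec8 lay below Rad21 in each library.

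The other SMC complexes were expressed too. Condensin folds mitotic chromosomes and SMC5/6 acts in DNA repair. Of the listed genes 14 of 14 were detected, beside 39.4% of all protein-coding genes, with a median TPM of 17.1. None was over 2-fold apart after centring, beside 11.1% of protein-coding genes averaging 1 TPM or more. Smc4 had 214 in replicate 1 and 135 in replicate 2, and its partner Smc2 had 58.9 and 48.0. Over near-full-length transcripts Smc4 was at 109 and 75.3, above every cohesin gene by that measure. Among the condensin subunits Ncapd2 had 49.2 and 55.9, Ncaph2 23.6 and 19.7, Ncapg 23.3 and 15.0, Ncaph 15.3 and 12.01, Ncapg2 12.7 and 10.8, and Ncapd3 9.26 and 7.70. Smc6 had 33.2 and 20.3 and Smc5 had 15.2 and 9.77. Of their partners Nsmce4a had 52.4 and 48.9, Nsmce1 15.6 and 14.7, Nsmce3 1.59 and 1.31, and Nsmce2 17.3 and 7, the last over 2-fold apart before centring only.

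Factors that bind at or near CTCF sites and promoters were detected in 6 of 6 cases, beside 39.4% of all protein-coding genes, with a median TPM of 15.9. None was over 2-fold apart after centring, beside 11.1% of protein-coding genes averaging 1 TPM or more. Ddx5, an RNA helicase gene, had 456 in replicate 1 and 257 in replicate 2, Yy1 28.9 and 19.7, and the zinc finger gene Patz1 20.97 and 13.8. Chd8, a chromatin remodeler gene, had 17.5 and 11.3, the zinc finger gene Maz 13.8 and 13.6, and Zfp143 7.53 and 9.19. The plot of the wider gene lists places these genes beside the release factors and the other SMC complexes.

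**Figure D5:**
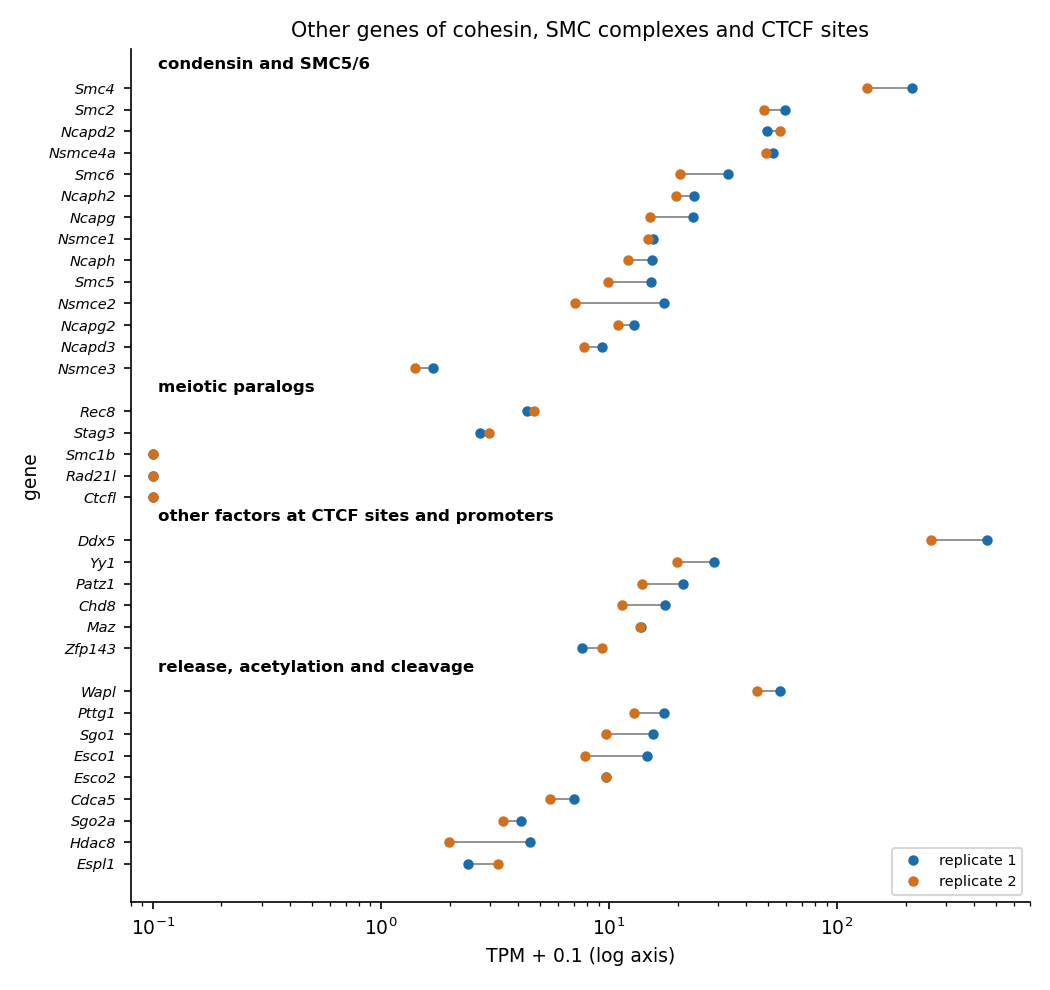
TPM + 0.1 on a log axis (x axis) of 34 other genes (y axis), grouped by list, in replicate 1 (blue) and replicate 2 (orange), joined by a line. Smc1b, Rad21l and Ctcfl sit at the left edge with 0 counts, and Smc4 and Ddx5 stand at the right of their lists.

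Sequence shared with other genes was small for the members. Runs of 50 bases of the longest transcript in GENCODE M21 were sought on both strands in the transcripts of all other genes. Smc1a, Rad21, Stag1, Stag2, Nipbl, Pds5b and Ctcf had none in common. Smc3 shared 75 of 4802 runs (1.56%) with 3 other genes, Mau2 106 of 5320 (1.99%) with 289 genes, and Pds5a 233 of 8885 (2.62%) with 2 genes. Some members overlap other annotated genes, and no source used here says whether the counting used strand. Gm5914, opposite to Ctcf, had 163 counts in replicate 1 and 32 in replicate 2, and Gm15267, a pseudogene opposite to Smc1a, had 107 and 2.2. On the same strand as Stag1, Gm3081 had 113 and 95, Gm37204 37 and 62, and Gm38297 5 and 58. These counts are small beside the 7701 and 7141 of Ctcf, the 28133 and 33656 of Smc1a and the 9758 and 10173 of Stag1.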

How the data were processed

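Total RNA of MEP was sequenced in 2 libraries of 1 group, which were grouped by the labels. The deposited tables give, per the file headers, for each gene and transcript an expected count (an estimated, unnormalized count), a TPM (scaled by the authors over all rows), an effective length, the bounds of a TPM interval of unstated level, treated as a signal, and the percent of a gene's TPM in each transcript. Per the deposited text files, build mm10 and GENCODE M4 were used. The program behind the estimates, not given in the sources used here, remains unknown. Each library has its own tables.

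Symbols, gene classes, coordinates and sequences are those of GENCODE M21 (same assembly). Of 43346 gene rows, 884 had no match, and 49 of 51 member transcripts had the same length in both annotations. Rows without an Ensembl ID held 26 counts in replicate 1 (6.5e-05%) and 1 in replicate 2 (2.1e-06%) and were left out. The members and lists were chosen with earlier results of these data known. All members are named, and of the other genes on the pathway lists those at a mean TPM of at least 1 or with 0 counts in both libraries. Markers are summed, and those named were chosen after their values were seen.

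Expected counts were rounded to whole numbers for TMM scaling (edgeR 4.0.16) and size factors (DESeq2 1.42.0), with R 4.3.3. Other steps used Python 3.11.15, numpy 2.4.6, pandas 2.3.3, matplotlib 3.10.9 and biopython 1.88. The 2-fold call was run on simulated counts with counting noise only and planted changes larger than 2-fold. That run cannot show how the call behaves under other differences between libraries. Near-full-length TPM and counts per kb of the longest transcript were chosen after seeing the data. Alternatives were other pseudocounts, scalings, minimum levels and lengths, the posterior mean TPM, and each library alone.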

Additional observations from a re-analysis of the deposited data

How the results depend on the processing

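With 1 group of 2 libraries no difference could be tested. The effect of depth was not measured beyond the floor of 3 counts and the deposited intervals. No paired analysis was possible because the series has 1 group. Among results for the whole set and the pairs, 42 alternative values were counted as close to the reported ones and 14 as moved. Rad21 over Ctcf, at 0.037, changed sign with replicate 1 alone (-0.26), and no other of these values did. For single levels 35 were counted as close and 15 as moved. Of those moved, 10 had TPM rescaled to the protein-coding genes of the nucleus other than globins, which raises every level. All values from 1 library alone were counted as close, even where Rad21 over Ctcf changed sign. The reported values lie between those of the 2 libraries, so these tallies do not measure how stable the values are.

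That scaling put the median TPM of the members at 143, beside 33.2 as reported, and near-full-length transcripts put it at 24.8. Over near-full-length transcripts the log2 ratio of Stag2 over Stag1 was 1.80, of Smc3 over Smc1a -0.19 and of Rad21 over Ctcf 1.02, and 3 rather than 6 pairs of neighbours were apart. Per length of the longest transcript these ratios were 1.51, -0.37 and 0.80. In expected counts without length they were 1.502, -0.32 and 0.73, with 1.62 for Pds5a over Pds5b and 2.06 for Nipbl over Mau2. The cause of these shifts was not tested. By construction, near-full-length TPM leaves out short transcripts, and expected counts without length leave out length. Counts per length of the longest transcript keep all counts of a gene and divide them by 1 fixed length. Near-full-length TPM and counts per length of the longest transcript were chosen after seeing the data. At 10 TPM or more in each library 8 of 10 members were counted.

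Either library alone gave a median TPM of 27.4 to 39.0. The log2 ratios ranged from 2.40 to 2.81 for Stag2 over Stag1, from 2.25 to 2.54 for Pds5a over Pds5b, from 1.05 to 1.58 for Nipbl over Mau2, from -0.63 to -0.57 for Smc3 over Smc1a and from -0.26 to 0.33 for Rad21 over Ctcf.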
